A study of Mus musculus with 14 samples.

Results

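Immediate early genes are the first genes a cell transcribes after a growth factor, hormone or stress signal, without waiting for new protein to be made. Kinase cascades act on factors already bound at their promoters, chiefly serum response factor with its ternary complex partners and CREB, and the products are mostly short-lived transcription factors that set off a second wave of genes. FOS and JUN proteins pair into AP-1, ATF3 pairs with JUN proteins, and the EGR proteins are zinc finger factors held in check by the NAB co-repressors. In the testis FOS and JUN proteins are known from Sertoli cells, the somatic nurse cells of the tubule, where follicle-stimulating hormone and growth factors induce them.

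The set described here is 10 genes: Fos, Fosb, Jun, Junb, Atf3, Egr1, Egr2, Egr3, Ier2 and Ier3. Its members are the non-control probes of the array whose gene name is one of these, which gave 13 of 41174 probes and 10 of 27670 genes. The probes are 60 bases long. Fos, Jun and Egr2 each have 1 probe printed on 10 spots, Junb, Egr3 and Ier2 each have 2 probes, and the other members have 1 probe on 1 spot, which makes 40 spots in all.

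Messenger RNA was measured with single-colour Agilent arrays in whole testis of C57BL/6 mice, with no treatment and with pups kept beside their mothers. The groups were 4-week Glis3KO2 (n = 3), 4-week WT (n = 3), 1-week Glis3KO2 (n = 4) and 1-week WT (n = 4). Glis3 encodes a zinc finger factor related to the GLI proteins, and Glis3KO2 is the name given to the mice in which it was disrupted; how the allele was made is not given in the sources used here. For the older age the sample labels say 4 weeks and the design text 3 weeks; the sample labels are followed. Nothing in the labels says that the samples of a group are separate animals, so p-values measure only the spread between these samples.

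The Glis3 probe had a log2 signal between -9.25 and -7.30 on the 4 arrays of 1-week Glis3KO2, none of them well above background, against -5.05 to -4.71 on the 4 arrays of 1-week WT, all well above background. With Glis3KO2 signals set no lower than the lowest signal that counts as well above background, Glis3 was 4.25-fold lower in 1-week Glis3KO2. The fitted log2 difference was -3.17 (SE 0.38, limma adjusted p = 0.00592). At 4 weeks the probe was not well above background on any array of either genotype, so it gives no check of the 4-week labels, and whether the probe lies in the part of Glis3 that was disrupted is not given in the sources used here. Of 43379 spots that are no controls, the share well above background was 76.5%, 78.5%, 74.3% and 74.4% on 1-week Glis3KO2 replicates 1 to 4, against 86.6%, 82.6%, 86.3% and 76.7% on 1-week WT replicates 1 to 4. The 4-week arrays lay on other slides than the 1-week arrays and were scanned on another day, so age cannot be told apart from slide and scan day, while both genotypes shared slides at each age. The 1-week Glis3KO2 replicate 4 was alone on its slide and scanned on a day of its own. The number of arrays limits the precision of every value.

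Values below are log2 signals: the processed intensity of a probe on the log2 scale minus the 75th percentile of its array. A gene is called when its limma p-value, adjusted by Benjamini-Hochberg over all genes tested, is under 0.05, and each log2 difference between genotypes is Glis3KO2 minus WT. Signals of different probes are not set against each other, because each probe has its own binding strength.

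At 4 weeks most of the set was high in Glis3KO2: 8 members were called higher, 1 was called lower and 1 did not pass the test. That is 9 of 10 members called, where 69.2% of all 21155 genes tested were called, 35.2% as higher and 34.0% as lower. Among these calls Fos entered the test only through Glis3KO2, where it was high. Egr3, the one called lower, entered only through WT, where it was high, and by 1 of its 2 probes. The median log2 difference of the members was 2.84, against 0.03 over all genes tested. With slide as a block 9 members were called (70.8% of genes), and within slide 4, with 2 arrays of each genotype, 9 were too (72.8% of genes). Within slide 5, with 1 array of each and so no test, the 8 higher members had differences from 2.41 for Ier2 to 5.31 for Atf3. On 8 of 10 members the 3 Glis3KO2 arrays all lay above the 3 WT arrays, against 38.7% of all genes. These are whole testes, so a changed share of a cell type and a changed amount of RNA per cell cannot be told apart. At 1 week 1 of 10 members was called, Egr2, which was lower in Glis3KO2, where 6.06% of 22496 genes were called lower and 3.95% higher.

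**Figure D1:**
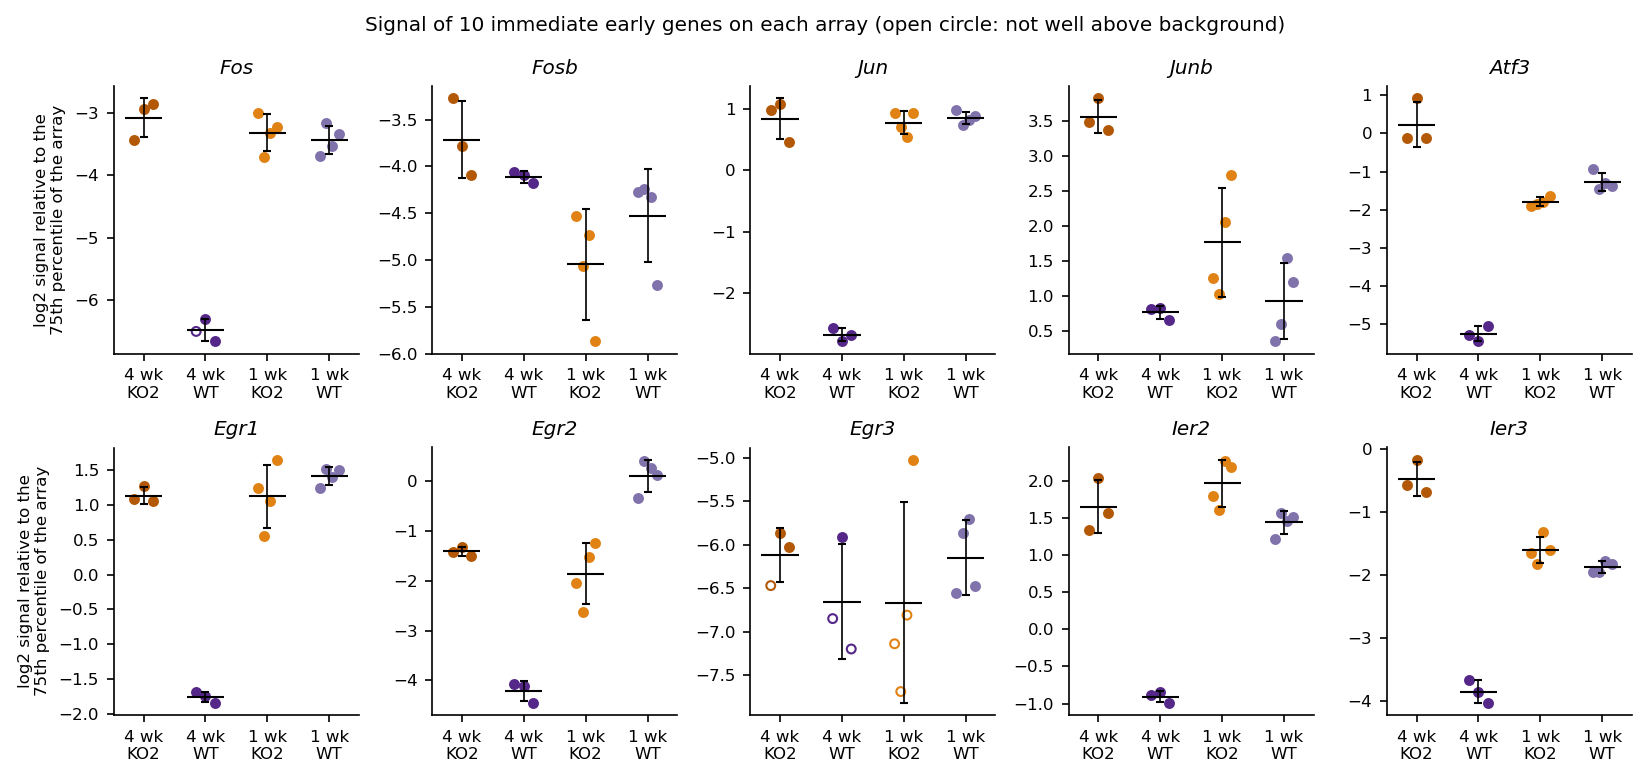
Log2 signal relative to the 75th percentile of the array (vertical axis, its own range in each panel) of the 10 immediate early genes in 4-week Glis3KO2, 4-week WT, 1-week Glis3KO2 and 1-week WT. Each point is 1 array, an open circle is an array on which the probe was not well above background, lines are means and bars are SD; Egr3 is shown by its second probe (A_52_P440836). For Fos, Jun, Atf3, Egr1, Egr2, Ier2 and Ier3 the 4-week WT arrays are the lowest group, while for Junb the 4-week Glis3KO2 arrays stand alone at the top, between 3.37 and 3.82.

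Fos encodes the founding FOS protein, which binds DNA only when paired with a JUN protein. Its probe lies on the plus strand of chromosome 12, from 83478431 to 83478490 on the mm7 build of the array annotation; no annotation of that build was used, so the exon or UTR it falls in is not given for any probe here. The log2 signal of Fos was -3.44, -2.94 and -2.86 in 4-week Glis3KO2, against -6.50, -6.30 and -6.65 in 4-week WT. No array of one genotype reached the other, and the probe was well above background on all 3 Glis3KO2 arrays and on 2 of 3 WT arrays, so it entered the test through the Glis3KO2 group. The log2 difference of Fos was 3.41 (SE 0.20, limma adjusted p = 0.000434), a 10.6-fold difference that becomes a log2 difference of 1.61 with another background correction (normexp). At 1 week Fos was at -3.0, -3.71, -3.33 and -3.23 in Glis3KO2, against -3.69, -3.17, -3.53 and -3.34 in WT. The 1-week groups overlapped (log2 difference 0.12, SE 0.18, limma adjusted p = 0.648). Among the 10 Fos spots of an array the SD was between 0.037 and 0.301 on the log2 scale.

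The 250 bases before the start of Fos are shown because they hold half-sites of the cyclic AMP response element and a TATA box; the serum response element known for Fos lies further upstream, beyond this window. RefSeq entries with such a window were at hand for 7 members (Fos, Fosb, Jun, Junb, Atf3, Egr2 and Ier3), on GRCm38.p6, and not for Egr1, Egr3 and Ier2. The Fos window is chr12:85473640-85473889, plus strand; capitals mark TGACG, the half-site of the cyclic AMP response element to which CREB and ATF proteins bind, and TATAAA, the TATA box.

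Fos: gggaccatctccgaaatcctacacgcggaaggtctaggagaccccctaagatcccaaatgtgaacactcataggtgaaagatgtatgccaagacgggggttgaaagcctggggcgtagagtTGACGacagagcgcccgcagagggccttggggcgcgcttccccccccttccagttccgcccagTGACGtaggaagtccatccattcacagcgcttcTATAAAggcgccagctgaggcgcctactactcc

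Both strands were searched for each string as written, so near matches are not counted. A gene counts if any of its windows holds the string. TGACG was found in the windows of 5 of 7 members (Fos, Fosb, Junb, Atf3 and Egr2), and 19.8% of 27025 genes with a window hold it. The full palindrome TGACGTCA was in 0 of 7 members and 1.77% of genes, and the AP-1 site TGANTCA in 0 of 7 and 7.82%. The EGR site GCGNGGGCG was in Fosb alone of the 7 (5.33% of genes), where it lies 50 to 42 bases before the start, TATAAA in Fos alone (14.3%) and the CArG box, the serum response factor site, in Egr2 alone (1.62%). The TGACG matches overlap any TGACGTCA by construction. A match is a string of letters in this window and does not show that a factor binds there.

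Fosb encodes the FOS relative that also pairs with JUN proteins; its probe lies on the minus strand of chromosome 7, from 16985502 to 16985561 (mm7). Its log2 signal was -3.27, -3.78 and -4.09 in 4-week Glis3KO2, against -4.06, -4.09 and -4.18 in 4-week WT. Glis3KO2 replicate 3 lay within the WT range, and the difference of 0.39 (SE 0.23) was not called (limma adjusted p = 0.164). Without that array it was 0.58 and passed the test (limma adjusted p = 0.0269). At 1 week Fosb was at -4.53, -5.06, -4.73 and -5.87 in Glis3KO2, against -4.27, -4.24, -4.33 and -5.27 in WT. The arrays of replicate 4 were the lowest of both genotypes, the groups overlapped, and the difference of -0.52 (SE 0.34) was not called (limma adjusted p = 0.288).

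Jun encodes the main JUN protein of AP-1, which can act alone or with FOS and ATF partners. Its probe is on the minus strand of chromosome 4, from 94441779 to 94441838 (mm7). In 4-week Glis3KO2 the log2 signal of Jun was 0.99, 1.08 and 0.46, against -2.58, -2.79 and -2.69 in 4-week WT. The gap between the genotypes was wider than the whole range within either one, and the log2 difference was 3.53 (SE 0.20, 11.6-fold, limma adjusted p = 0.000434). At 1 week Jun was at 0.94, 0.71, 0.54 and 0.93 in Glis3KO2, against 0.98, 0.74, 0.82 and 0.88 in WT. These groups overlapped, with a difference of -0.08 (SE 0.13, limma adjusted p = 0.679). Among its 10 spots the SD was 0.034 to 0.085 on any array.

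Junb encodes a JUN protein often described as a brake on JUN in proliferation. Its 2 probes overlap on the minus strand of chromosome 8, from 83563059 to 83563118 and from 83563097 to 83563156 (mm7), so they share part of their target sequence. The brighter probe gave 3.48, 3.82 and 3.37 in 4-week Glis3KO2, against 0.81, 0.83 and 0.66 in 4-week WT. All Glis3KO2 arrays were higher, by 2.79 on average (SE 0.17, 6.92-fold, limma adjusted p = 0.000434), and the other probe gave 2.19 (SE 0.19), also called in a fit of all probes, where 69.4% of probes were called. At 1 week the brighter probe of Junb gave 1.25, 1.02, 2.06 and 2.72 in Glis3KO2, against 0.35, 0.60, 1.54 and 1.19 in WT. The genotypes overlapped and Glis3KO2 replicates 3 and 4 were its high arrays; the difference of 0.84 (SE 0.42) was not called (limma adjusted p = 0.18).

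Atf3 encodes a stress-induced factor of the ATF/CREB family that pairs with JUN proteins. Its probe is on the minus strand of chromosome 1, from 190724174 to 190724233 (mm7). The log2 signal of Atf3 was -0.12, 0.92 and -0.11 in 4-week Glis3KO2, against -5.28, -5.42 and -5.03 in 4-week WT, with all 6 arrays well above background. This was the widest gap between genotypes in the set, a log2 difference of 5.47 (SE 0.31, 44.4-fold, limma adjusted p = 0.000434) and of 4.27 with normexp. In the deposited processed intensity the same arrays read 1670, 3600 and 1920 in Glis3KO2, against 57.4, 41.3 and 63.3 in WT. At 1 week Atf3 was at -1.90, -1.84, -1.79 and -1.63 in Glis3KO2, against -0.92, -1.46, -1.30 and -1.38 in WT. All 4 Glis3KO2 arrays were below all 4 WT arrays, which holds for 11.9% of all genes at this age, and the difference of -0.53 (SE 0.14) missed the threshold (limma adjusted p = 0.0551). It passed in 3 of 23 alternatives, with adjusted p from 0.0381. Its window, chr1:191183334-191183583 on the minus strand of GRCm38.p6, is shown for the TGACG half-site, which is read on the other strand as CGTCA and ends 3 bases before the start, in capitals.

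Atf3: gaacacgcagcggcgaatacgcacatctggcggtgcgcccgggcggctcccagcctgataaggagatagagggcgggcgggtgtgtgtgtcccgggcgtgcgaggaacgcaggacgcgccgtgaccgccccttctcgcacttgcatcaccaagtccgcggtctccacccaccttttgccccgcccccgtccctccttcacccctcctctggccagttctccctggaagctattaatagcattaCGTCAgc

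Egr1 encodes the zinc finger factor that names the EGR family, induced by most growth factors; its probe lies on the plus strand of chromosome 18, from 35240842 to 35240901 (mm7). Its log2 signal was 1.08, 1.27 and 1.05 in 4-week Glis3KO2, against -1.69, -1.74 and -1.84 in 4-week WT. The 3 arrays of each genotype lay close together, and Egr1 was higher in Glis3KO2 by 2.89 (SE 0.14, 7.43-fold, limma adjusted p = 0.000434). At 1 week Egr1 was at 1.24, 0.56, 1.06 and 1.65 in Glis3KO2, against 1.24, 1.52, 1.4 and 1.5 in WT. The WT values fell within the spread of the Glis3KO2 values, and the difference of -0.29 (SE 0.22) was not called (limma adjusted p = 0.354).

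Egr2 encodes the EGR factor best known from Schwann cells and the hindbrain. Its probe lies on the plus strand of chromosome 10, from 67145376 to 67145435 (mm7), and the SD among its 10 spots had a median of 0.06 over the arrays. In 4-week Glis3KO2 the log2 signal of Egr2 was -1.42, -1.32 and -1.50, against -4.08, -4.12 and -4.45 in 4-week WT, a difference of 2.80 (SE 0.16, 6.98-fold, limma adjusted p = 0.000434). At 1 week the order was turned round. Egr2 was at -2.05, -2.62, -1.53 and -1.24 in 1-week Glis3KO2, against -0.35, 0.39, 0.26 and 0.11 in 1-week WT. All 4 Glis3KO2 arrays were below all 4 WT arrays, and the difference of -1.96 (SE 0.31, 3.9-fold lower) was called (limma adjusted p = 0.0154). With slide as a block it was -2.19 (limma adjusted p = 0.0287). Within slide 1, with 2 arrays of each genotype, it was -1.74 and not called (limma adjusted p = 0.119), and within slide 2, with 1 Glis3KO2 and 2 WT arrays, it was -2.87 (limma adjusted p = 0.679); in each of these small fits limma called 0 genes of all tested, with 4142 within slide 1 and 1123 within slide 2 at an unadjusted p under 0.05. Leaving out each 1-week array in turn gave -2.17 to -1.71, all called.

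Egr2 has 5 RefSeq windows, from several transcript starts; 3 of them, whose starts lie close together, hold both the TGACG half-site and the CArG box. One of these, chr10:67537619-67537868 on the plus strand of GRCm38.p6, is shown because it has a CArG box beside half-sites on both strands; capitals mark TGACG, the CArG box and CGTCA in that order, and the CArG box lies 72 to 63 bases before the start.

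Egr2: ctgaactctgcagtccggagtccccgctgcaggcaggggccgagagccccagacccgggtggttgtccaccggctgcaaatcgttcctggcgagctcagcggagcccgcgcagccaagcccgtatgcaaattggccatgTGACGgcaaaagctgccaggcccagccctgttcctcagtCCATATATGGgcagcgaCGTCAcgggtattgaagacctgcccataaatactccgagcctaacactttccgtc

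Egr3 encodes the third EGR factor, a target of calcium and ERK signals in neurons and lymphocytes, and its 2 probes disagreed. They lie on the plus strand of chromosome 14, from 64723504 to 64723563 (A_51_P437198) and from 64726656 to 64726715 (A_52_P440836) on mm7. The first gave -6.73, -7.51 and -7.14 in 4-week Glis3KO2, on none of the 3 arrays well above background, against -4.79, -4.29 and -4.55 in 4-week WT, well above background on all 3. It entered the test through WT, with a fitted log2 difference of -2.59 (SE 0.24, limma adjusted p = 0.000561). With Glis3KO2 signals set no lower than the lowest signal that counts as well above background, Egr3 was 4.81-fold lower in 4-week Glis3KO2. With normexp the log2 difference was -0.86, so the size depends on the background correction. The second gave -6.47, -5.87 and -6.02 in 4-week Glis3KO2, against -6.85, -5.91 and -7.20 in 4-week WT. These overlapped and were too dim to be tested under the background filter; where no filter was set this probe stood for Egr3 with a difference of 0.53, not called (limma adjusted p = 0.273), and the same change of probe gave 0.71 without Glis3KO2 replicate 1. The lower call of Egr3 therefore rests on 1 probe. At 1 week only the second probe was tested, through WT: Egr3 was at -7.14, -7.69, -6.81 and -5.02 in Glis3KO2, against -6.56, -5.86, -5.70 and -6.47 in WT. Glis3KO2 replicate 4 was above every WT array and the other Glis3KO2 arrays below them, and the difference of -0.52 (SE 0.54) was not called (limma adjusted p = 0.492).

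Ier2 encodes a nuclear protein induced by serum. Its 2 probes match the minus strand of chromosome 8, from 83243584 to 83243618 for the brighter probe, of which the annotation gives only part of the length, and from 83243758 to 83243816 (mm7) for the other. The brighter probe gave 1.34, 2.04 and 1.57 in 4-week Glis3KO2, against -0.89, -0.84 and -0.99 in 4-week WT. Ier2 was higher on all Glis3KO2 arrays, by 2.56 (SE 0.21, 5.9-fold, limma adjusted p = 0.000515), and by 1.14 (SE 0.16) with the dimmer probe, also called. At 1 week the brighter probe gave 1.79, 1.60, 2.27 and 2.19 in Glis3KO2, against 1.21, 1.57, 1.46 and 1.51 in WT. All 4 Glis3KO2 arrays of Ier2 were above all 4 WT arrays, as for 15.4% of all genes, but the difference of 0.52 (SE 0.18) was not called (limma adjusted p = 0.0809). It passed in 2 of 23 alternatives, with adjusted p from 0.0466.

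Ier3 encodes a small stress-induced protein linked to survival signals and ERK. Its probe is on the plus strand of chromosome 17, from 33924245 to 33924304 (mm7). It gave -0.58, -0.17 and -0.68 in 4-week Glis3KO2, against -3.67, -3.86 and -4.03 in 4-week WT, a difference of 3.38 (SE 0.19, 10.4-fold, limma adjusted p = 0.000434) with no overlap. At 1 week Ier3 was at -1.65, -1.83, -1.32 and -1.61 in Glis3KO2, against -1.95, -1.96, -1.78 and -1.82 in WT. Glis3KO2 replicate 2 fell within the WT range, and the difference of 0.28 (SE 0.13) was not called (limma adjusted p = 0.173).

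**Figure D2:**
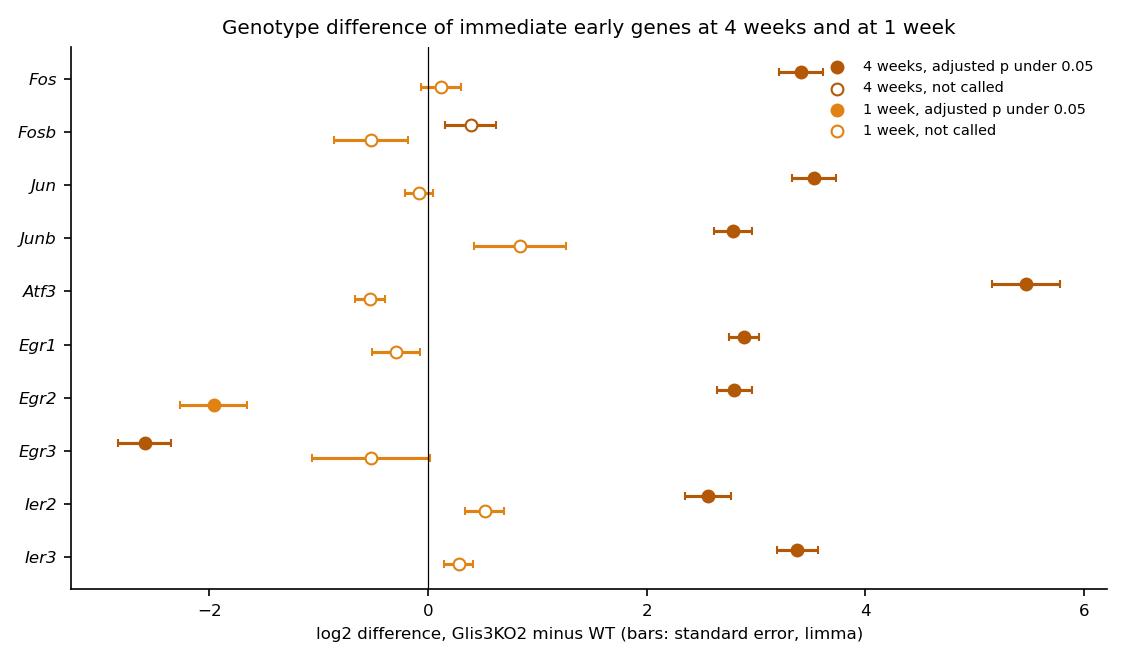
Log2 difference, Glis3KO2 minus WT, of each member at 4 weeks (dark, upper point) and at 1 week (light, lower point), with limma standard errors as bars; filled points have an adjusted p under 0.05. At 4 weeks 8 members lie between 2.56 and 5.47 and Egr3, shown there by its first probe and at 1 week by its second, lies at -2.59; at 1 week Egr2 at -1.96 is the only filled point.

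Whether the genotype difference itself changed with age was tested in 1 fit of all 14 arrays. By the probe that stands for each gene, the difference of the genotype effects, 4-week minus 1-week, was called for 8 of 10 members, all positive. Of 23519 genes 51.0% were called, 29.4% as positive and 21.6% as negative. It was 6.00 for Atf3 (SE 0.33), 4.77 for Egr2 (SE 0.40), 3.61 for Jun, 3.29 for Fos, 3.18 for Egr1, 3.10 for Ier3, 2.04 for Ier2 and 1.95 for Junb (limma adjusted p from 1.27e-06 for Atf3 to 0.00852 for Junb). Fos was at 1.33 with normexp, also called. With slide as a fixed block, an alternative chosen after seeing the data, these 8 stayed called, from 2.12 for Ier2 to 6.08 for Atf3, and 9 members were called in all, where 50.1% of genes were. For Egr2 the 2 ages differed in direction. Fosb, at 0.92, was not called (limma adjusted p = 0.12), but passed at 1.16 without 1-week WT replicate 4 (limma adjusted p = 0.0335). For Egr3 the second probe, which stood for the gene, was at 1.05 and not called (limma adjusted p = 0.255), but passed at 1.60 without 1-week Glis3KO2 replicate 4 (limma adjusted p = 0.018) and at 1.65 with the slide block (limma adjusted p = 0.0125). The second probe was well above background on 2 of 3 arrays of 4-week Glis3KO2, 1 of 3 of 4-week WT, 1 of 4 of 1-week Glis3KO2 and 4 of 4 of 1-week WT. The first probe was well above background on 0 of 3 arrays of 4-week Glis3KO2 and 3 of 3 of 4-week WT. At 1 week it was so on 1 of 4 arrays of Glis3KO2 and 2 of 4 of WT. In the fit of all probes, where 51.9% of probes were called, the first probe went the other way. It was called at -2.49 (SE 0.59, limma adjusted p = 0.00384), a size that rests on signals near background in all groups but 4-week WT.

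Across age in WT, 7 of 10 members were called lower and 0 higher, by the probe that stands for each gene. The log2 difference, 4-week minus 1-week, was -4.32 for Egr2 (SE 0.20), -3.98 for Atf3 (SE 0.16), -3.54 for Jun, -3.18 for Egr1, -3.05 for Fos, -2.35 for Ier2 and -1.97 for Ier3. Among these calls Fos was well above background on 2 of 3 arrays of 4-week WT. It entered the test only through 1-week WT, where it was high. With normexp Fos was at -1.32, also called. Over all 23453 genes in that comparison 80.9% were called, 31.2% as higher and 49.7% as lower, and the median was -2.70 for the members and -0.51 for all genes. Junb stood at 0.81, 0.83 and 0.66 in 4-week WT, against 0.35, 0.60, 1.54 and 1.19 in 1-week WT, a difference of -0.15 that was not called (limma adjusted p = 0.636). Fosb was not called at 0.42 (limma adjusted p = 0.18), although all 4-week WT arrays lay above all 1-week WT arrays, as for 31.7% of all genes; it passed with median scaling (0.55, limma adjusted p = 0.0401), quantile scaling (0.60, limma adjusted p = 0.010) and normexp (0.33, limma adjusted p = 0.00941). For Egr3 the first probe was well above background on 3 of 3 arrays of 4-week WT, against 2 of 4 of 1-week WT, and higher in 4-week WT by 3.05 (called in the fit of all probes, where 81.6% were), a size that rests on signals near background at 1 week. The second, which stood for the gene, was not called at -0.50 (limma adjusted p = 0.231), though it passed at -0.87 without 4-week WT replicate 2.

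Across age in Glis3KO2, 4 of 9 members tested were called higher and 0 lower, where 52.7% of 21527 genes were called, 23.7% as higher and 29.0% as lower. These were Atf3 (2.02, SE 0.28), Junb (1.80, SE 0.40), Fosb (1.33, SE 0.35) and Ier3 (1.13, SE 0.22), with limma adjusted p from 0.000417 for Atf3 to 0.0116 for Fosb, which was at 0.64 with normexp, also called. Jun averaged 0.84 ± 0.33 (SD, n = 3) in 4-week Glis3KO2 and 0.78 ± 0.19 (SD, n = 4) in 1-week Glis3KO2. Egr1 averaged 1.13 ± 0.12 in 4-week Glis3KO2 and 1.13 ± 0.45 in 1-week Glis3KO2. Fos (0.24), Egr2 (0.45) and Ier2 (-0.31) were also not called, which does not show that their levels were equal. These comparisons share their arrays with the genotype comparisons above and add no independent samples.

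The partners and neighbours of the set were read from 6 pathway lists. Their counts stand beside those of all genes tested: at 4 weeks 35.2% were called higher and 34.0% lower. At 1 week 3.95% of all genes were called higher and 6.06% lower. Of 12 AP-1 partners, 9 were called higher and 0 lower in 4-week Glis3KO2, and their log2 differences had a median of 1.37. Among them were Maff (3.67, SE 0.24), Mafk (2.28) and Mafg (1.70), the small MAF proteins, Fosl2 (3.16, SE 0.25), a FOS relative, Jund (2.39, SE 0.28), the third JUN protein, and Jdp2 (2.35), a repressor of AP-1. Fosl1 (-0.67), Batf (-0.40) and Atf2 (-0.22) were not called. At 1 week 1 of 12 was called, Mafg, at -0.74 (SE 0.15, limma adjusted p = 0.030).

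Of the EGR relatives, Egr4 and the co-repressors Nab1 and Nab2 were all 3 called higher in 4-week Glis3KO2, at 0.86 (SE 0.22), 1.82 (SE 0.17) and 1.45 (SE 0.20). At 1 week Egr4 was lower in Glis3KO2 by -2.56 (SE 0.46, limma adjusted p = 0.0219) and Nab1 higher by 0.48 (limma adjusted p = 0.048). In both EGR genes called at 1 week, Egr2 and Egr4, the 1-week and 4-week differences thus had opposite signs.

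Among 24 other immediate early genes tested at 4 weeks, 19 were called higher in Glis3KO2 and 3 lower, with a median of 1.16. The ones with the smallest p were Socs3 (3.55, SE 0.24), a feedback inhibitor of cytokine signals, Btg2 (3.20, SE 0.19), an antiproliferative gene, Ccn1 (3.16, SE 0.16), a secreted matricellular protein, Klf6 (2.94, SE 0.19), a zinc finger factor, Zfp36 (2.52, SE 0.17), which speeds decay of AU-rich messenger RNA, and Sgk1 (2.43, SE 0.16), a kinase. Nr4a3 (-3.67), an orphan nuclear receptor, Arc (-1.98), best known from neurons, and Klf4 (-0.92), a zinc finger factor, were called lower. Of 25 genes of the list, 24 were well above background on every 4-week WT array and 23 on every 4-week Glis3KO2 array. Nr4a3 did not enter the test at 1 week, so the size of its 4-week difference may rest on signals near background. At 1 week 2 of 23 were called, Rgs2, a regulator of G protein signals, at 0.77 and Klf10, a zinc finger factor induced by TGF-beta, at -0.59.

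Inhibitors that ERK signalling itself induces showed the same direction: 7 of 8 tested were called higher in 4-week Glis3KO2 and 0 lower (median 1.67). They include Spry1 (2.35, SE 0.14), Spry2 (1.74, SE 0.20) and Spred2 (1.65, SE 0.18), which block the route to ERK, and the phosphatases Dusp6 (2.07, SE 0.20), Dusp1 (1.69, SE 0.16) and Dusp4 (1.22, SE 0.16). At 1 week limma called 0 of 9, with 0 at an unadjusted p under 0.05, and the values ran from -0.58 to 0.39. Of all 22496 genes tested at 1 week, 8111 had an unadjusted p under 0.05. Upstream kinases and factors were mixed at 4 weeks, with 11 of 16 called higher and 4 lower. Srf, serum response factor, was higher by 1.76 (SE 0.27), the kinases Mapk14, Map2k1 and Rps6ka3 by 1.48, 1.4 and 1.37, and the lower ones were Mrtfb (-1.34, SE 0.16) and Mrtfa (-0.67), partners of serum response factor, and the kinases Map2k2 (-0.57) and Braf (-0.41). At 1 week limma called 0 of 16, with 5 at an unadjusted p under 0.05, against 8111 of all 22496 genes tested.

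Heat shock genes, which many stresses induce through another factor, did not move one way at 4 weeks: 3 of 7 were called higher and 4 lower. Hspb1 (2.90), Hspa1a (2.14) and Hspa8 (1.05) were higher in 4-week Glis3KO2, and Bag3 (-1.56), Dnajb1 (-1.27), Hsp90aa1 (-0.63) and Hsph1 (-0.59) were lower. At 1 week 1 of 7 was called, Hspb1, at 0.54.

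**Figure D3:**
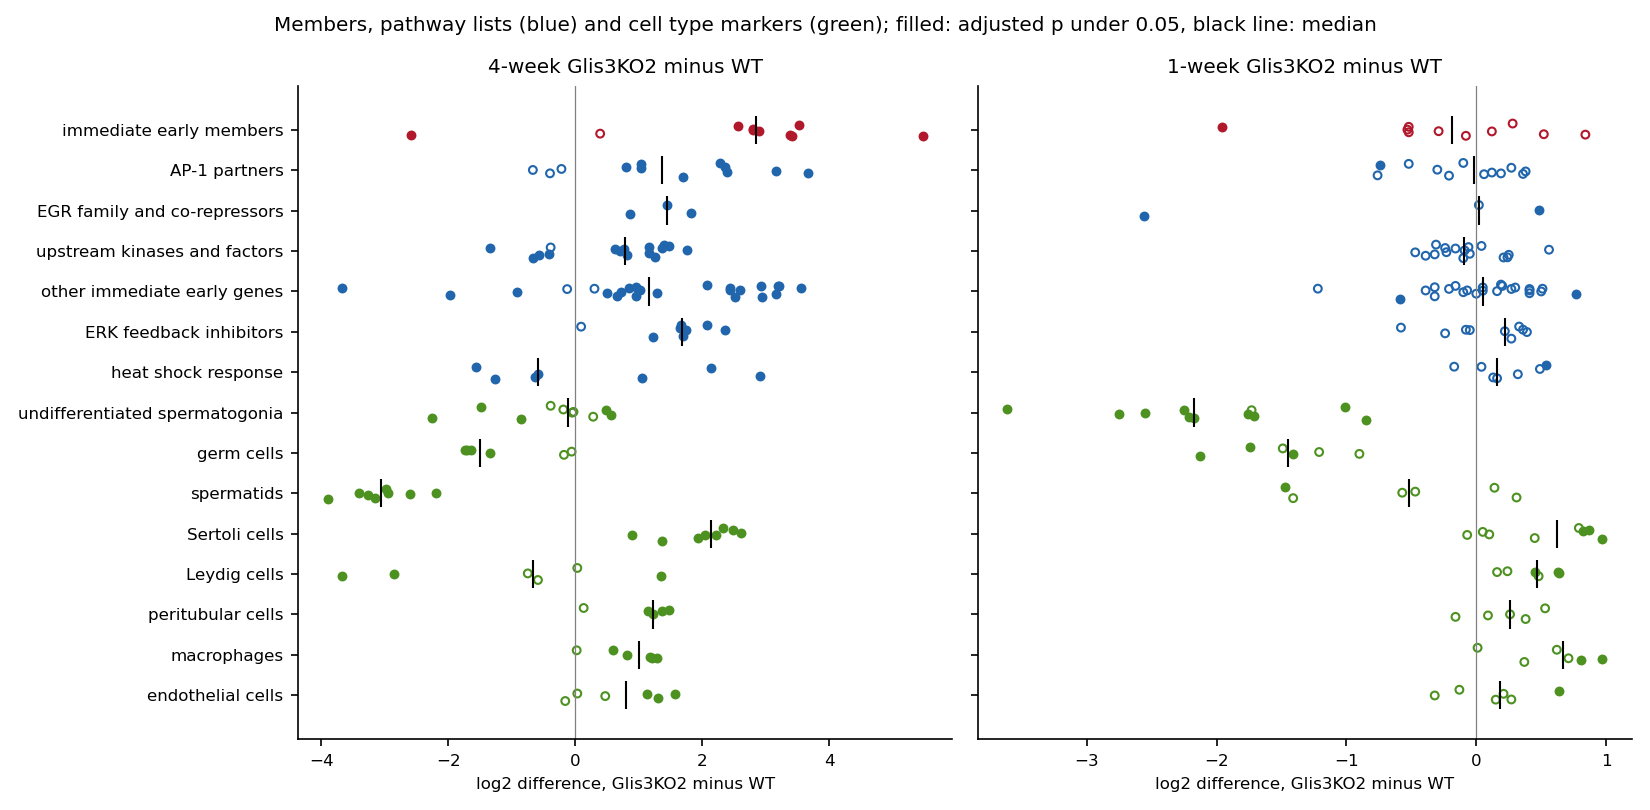
Log2 difference, Glis3KO2 minus WT, at 4 weeks (left) and 1 week (right) of every tested gene of the set (red), of 6 pathway lists (blue) and of 8 cell type marker lists (green); filled points have an adjusted p under 0.05 and black lines are medians. At 4 weeks the set has a median of 2.84, Sertoli cell markers 2.13 and spermatid markers -3.07; at 1 week undifferentiated spermatogonia have a median of -2.17 and the set -0.18.

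Cell type markers moved with genotype and age as well. Of all genes tested, 35.2% were called higher and 34.0% lower in 4-week Glis3KO2, and 3.95% higher and 6.06% lower in 1-week Glis3KO2. Mean log2 signal of 8 spermatid markers was 0.87 to 2.01 over the 4-week Glis3KO2 arrays, against 4.39 to 4.93 over the 4-week WT arrays, and all 8 were called lower. Sertoli cell markers, also 8, averaged 1.35 to 1.89 in 4-week Glis3KO2, against -0.32 to -0.26 in 4-week WT, with all 8 called higher (median difference 2.13). Called higher too were 4 of 5 peritubular, 5 of 6 macrophage and 3 of 6 endothelial markers, with medians of 1.23, 1.00 and 0.80, while Leydig cell markers had 1 called higher and 2 lower of 6. Of general germ cell markers 4 of 6 were called lower, and of undifferentiated spermatogonia 2 of 10 higher and 3 lower. All genes of the spermatid, Sertoli, peritubular, macrophage and endothelial lists were well above background on every 4-week array. At 1 week 10 of 11 markers of undifferentiated spermatogonia were called lower in Glis3KO2, with list means of -4.96 to -3.66, against -2.29 to -2.19 in WT. In the same 1-week comparison 3 of 6 general germ cell markers and 1 of 6 tested spermatid markers were called lower. Higher by limma were 3 of 8 Sertoli cell, 3 of 6 Leydig cell, 2 of 6 macrophage, 1 of 6 endothelial and 0 of 5 peritubular markers. The peritubular list had 0 at an unadjusted p under 0.05, against 8111 of all 22496 genes tested. In WT across age, where 31.2% of all genes were called higher and 49.7% lower, the spermatid markers rose (8 of 8, median 9.45). That size rests partly on signals near background: 6 to 7 of the 8 were well above it on the 1-week WT arrays. The Sertoli and peritubular markers fell in WT across age (8 of 8, median -2.60, and 5 of 5, median -1.90). What part the cell makeup has in the values of the set was not tested.

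Within groups the members varied together to different degrees. The deviation of each array from its group mean was taken for each member. Pearson's r over 14 arrays ran from -0.50 for Fosb with Junb (Spearman's rho -0.31) to 0.84 for Egr1 with Egr2 (rho 0.59). The median r was 0.27 over 45 pairs. Egr2 and Junb had r = 0.82 (rho 0.77) and Egr2 and Egr3 r = 0.81 (rho 0.82). The widest deviations of Egr1 were -0.57 and 0.52, in 1-week Glis3KO2 replicates 2 and 4. Egr3 was read here by its second probe, which was not well above background on every array. Its widest deviations were 1.64 in 1-week Glis3KO2 replicate 4, alone on its slide, and -1.03 in replicate 2 of that group. All members are read from the same arrays and scaled by the same percentile, so an array's scaling enters every pair. In 1-week Glis3KO2, replicate 4 was above the group mean for 8 of 10 members and replicate 2 for 0 of 10. In 4-week Glis3KO2, replicate 2 was above it for 9 of 10, Fosb being the exception, and its Atf3 stood 0.69 above.

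**Figure D4:**
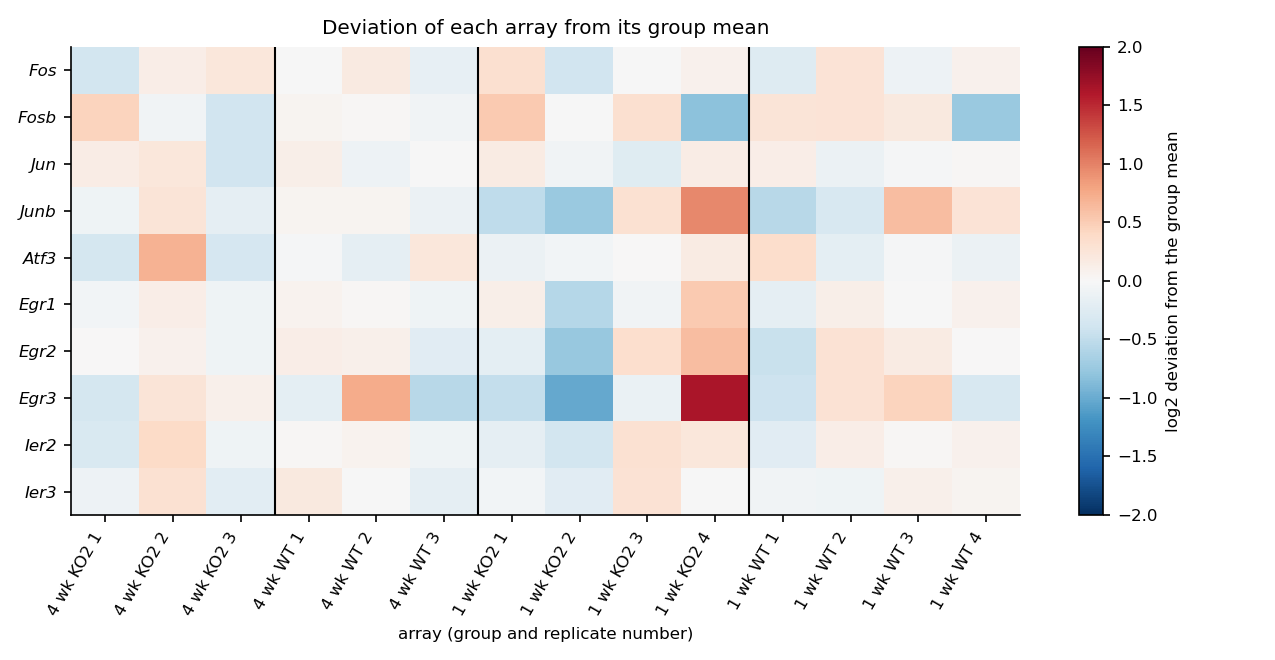
Deviation of every array from its group mean, in log2 units (red above, blue below), for the 10 members (rows) and 14 arrays (columns, by group and replicate number). The 1-week Glis3KO2 column of replicate 4 is above its mean for 8 of 10 members and that of replicate 2 for 0 of 10, and the 4-week Glis3KO2 column of replicate 2 is above its mean for 9 of 10.

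Outside the set, the genes whose deviations followed the mean scaled deviation of the members most closely, over 14 arrays and 20096 genes compared, were Tagln2 (Pearson's r = 0.96, Spearman's rho = 0.93), Nupr1 (0.96 and 0.89), Trim12a (0.95 and 0.86), Pgpep1 (0.93 and 0.94) and H2bc4 (0.91 and 0.93). They share the arrays and their scaling with the members, and were picked as the highest of many. In 4-week Glis3KO2 all 5 were called higher, as were 35.2% of all genes tested. Trim12a was higher by 2.26, Tagln2 by 1.93, H2bc4 by 1.79, Pgpep1 by 1.76 and Nupr1 by 1.00. At 1 week their limma adjusted p ran from 0.0596 for Nupr1 to 0.582 for Tagln2. Tagln2 encodes an actin-binding protein, Nupr1 a stress-induced nuclear protein, H2bc4 a histone H2B and Pgpep1 a peptidase.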

How the data were processed

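Total RNA of mouse testis was labelled with Cy3 and hybridized to Agilent whole mouse genome arrays, per the labels. Spots were quantified in Agilent Feature Extraction 9.5, per the submitters' processing notes. The authors deposited scanner output with 3 intensity columns used here, per the file headers: a mean spot intensity, a local background, and a processed intensity with background subtracted and no scaling between arrays. Spot flags of 0 or 1 are deposited beside them.

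From these, log2 of the processed intensity was taken, non-uniform spots were left out, the mean over a probe's spots was taken and each array's 75th percentile was subtracted. Probes were named through accession (22951), symbol (6659) or synonym (3109), and 8455 kept their name. A probe was tested if well above background (at least 0.5 of its spots) on 3 or more arrays of a group, and the brightest stood for its gene in each comparison. limma 3.58.1 in R 4.3.3 was fitted over all genes, separately per age and genotype pair, and jointly to 14 arrays for the change of the genotype effect with age, with Benjamini-Hochberg adjustment at 0.05. The genotype fits were tested on simulated data with independent genes, few of them changed, and no slide effect. Data in which most genes change, as at 4 weeks, were not simulated. Likeness is Pearson's r of deviations from group means.

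The members, lists and tests were chosen with earlier results of these data known. Named are all members, Glis3, up to 6 members of each pathway list with the smallest p, those completing a count of 5 or fewer, and the 5 genes most like the set; 1 gene of a pathway list that the rule names is not reported here. Motifs were chosen with the windows in view. Alternatives were median and quantile scaling, normexp with offset 50, other filters and probe rules, blocks, single slides, an intensity trend and leaving out each array. Figures used Python 3.11.15 and matplotlib 3.10.9.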

Additional observations from a re-analysis of the deposited data

Results flagged for a closer look

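1 of 28 probe and group combinations with 4 arrays had an array far from the others, and chance gives about 1 in 20 such cases: Fosb in 1-week WT replicate 4 had a log2 signal of -5.27, where its 3 companions lay between -4.33 and -4.24.

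The genotype effect differed between the ages for 8 of 10 members in the fit of all arrays, where 51.0% of all 23519 genes were called. The difference of effects, 4-week minus 1-week, was 3.29 for Fos, 3.61 for Jun, 1.95 for Junb, 6.00 for Atf3, 3.18 for Egr1, 4.77 for Egr2, 2.04 for Ier2 and 3.10 for Ier3. The ages were on separate slides, scanned on separate days, and 1-week Glis3KO2 replicate 4 had a slide and scan day with no WT array. With slide as a fixed block all 8 stayed called, from 2.12 for Ier2 to 6.08 for Atf3, where 50.1% of all genes were called.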

How the results depend on the processing

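Over the alternatives the members called numbered 8 to 10 in 4-week Glis3KO2 minus WT, where 52.2% to 75.4% of all genes were called, 8 to 10 for the difference of the genotype effects (42.2% to 56.3%), 7 to 8 in WT across age (72% to 84.9%) and 4 in Glis3KO2 across age (40.1% to 63.1%). At 1 week the count was 2 with median scaling, normexp or the filter on every array (17.4%, 16.5% and 14.9% of genes), 3 with an intensity trend (17.1%), and 0 within slide 1 or slide 2 alone, fits in which limma called 0 genes at all (2 and 3 members, 4142 and 1123 genes, at an unadjusted p under 0.05), against 1 as reported. Median scaling turned Jun to 0.18 at 1 week, and Jun and Egr1 to -0.14 and -0.20 in Glis3KO2 across age; it moved the median of all genes at 1 week to 0.19, against -0.06. Quantile scaling and normexp turned Egr3 at 1 week to 0.10 (both), and normexp turned its difference of effects to -0.01. Fos at 1 week was -0.45 within slide 2, and Fosb at 4 weeks was -0.01 within slide 5, which allows no test. Egr3 at 4 weeks was 0.53 with no filter; the mean of its probes gave 1.27 in WT across age and -0.72 for the difference of effects. Leaving out 1 array at a time gave -0.13 to 0 for Jun at 1 week, -2.71 to 0.71 for Egr3 at 4 weeks, -0.34 to 0.05 for Junb in WT across age, and -0.05 to 0.25 for Jun and -0.18 to 0.18 for Egr1 in Glis3KO2 across age. The cause of these reversals was not tested, except where the probe that stands for Egr3 changes. Same-numbered arrays did not deviate together (r from -0.31 to 0.17). With the replicate block 1 member was called at 1 week (1.69% of genes) and 9 at 4 weeks (64.7%). It called 9 for the difference of effects (47.2%), 7 in WT across age (82.4%) and 4 in Glis3KO2 across age (47.3%). The added call was Fosb in the difference of effects (0.92, limma adjusted p = 0.0222).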
